A study of Mus musculus with 6 samples.

Results

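Of the 19342 genes counted in islets from FXR+/+ and FXR−/− mice, 8 were examined here because their FXR+/+ and FXR−/− libraries parted clearly: *Nebl*, *Hip1r*, *Fam20a*, *Slc15a2*, *Ckb*, *Rhobtb1*, *Spock1* and *Lingo3*. In islets without FXR, *Nebl* and *Slc15a2* were lower, and the other 6 were higher. The genes were chosen by their CPM values (counts per 1000000 counts of the scaled library) in this contrast of the genotypes, so their levels are given as a description with no test. The split of their reads among exons, the levels of related genes, the levels of neighbouring genes and the differences between the sexes did not choose them, and these were tested. The test of the sexes shares the spread within groups with the contrast of the genotypes, so it is not independent of the choice.

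RNA was sequenced from islets of wild-type mice (FXR+/+) and of FXR knockout mice (FXR−/−), in which *Nr1h4*, the gene of FXR, was targeted. The sources used here name no Cre or tissue-specific promoter for this knockout. Each genotype had 3 libraries, from female 1, male 1 and male 2, all of mice aged 3 months, and the islets had been freed from the pancreas, with no other treatment in the labels. The knockout mice were of the C57Bl/6 strain and came from another laboratory, and the source of the wild-type mice in the RNA-seq was not given in the sources used here. The number of mice behind each library was not stated either, so p-values measure the spread between these libraries.

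FXR, encoded by *Nr1h4*, is a nuclear receptor for bile acids that binds DNA as a partner of the retinoid X receptor, typically at an inverted repeat of the hexamer AGGTCA with 1 base between the copies. It is best known for the control of bile acid synthesis and transport in liver and intestine. The 8 genes are not a known pathway. *Nebl* encodes nebulette, an actin-binding protein of the nebulin family that occurs at the Z-discs of heart muscle, and a shorter form, LIM-nebulette, found in other cells. *Hip1r* links clathrin coats to actin, *Rhobtb1* encodes an atypical GTPase that binds cullin 3, and *Ckb* encodes the brain-type creatine kinase, which buffers ATP. *Fam20a* encodes a pseudokinase of the secretory pathway that partners the kinase FAM20C, and *Spock1* encodes testican-1, a secreted proteoglycan. *Slc15a2* encodes PEPT2, a proton-coupled carrier of dipeptides and tripeptides, and *Lingo3* encodes a membrane protein with leucine-rich repeats.

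The libraries held between 20629306 and 30139235 counts on genes. FXR+/+ islets held *Nr1h4* at 13.3 ± 1.03 CPM (SD, n = 3), FXR−/− islets at 6.37 ± 1.09 CPM, and reads on its last exon, 73, 56 and 81 in FXR+/+, were at 0 in all FXR−/− libraries, so the libraries matched their labels. All 8 beta cell markers of a fixed list were at 1 CPM or more in every library. The 16 acinar markers took between 4.84% and 14.1% of the counts, with the highest shares in male 1 of both genotypes, so all libraries also held exocrine RNA. In a bulk sample, fewer cells of a type and less RNA per cell cannot be told apart.

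Both genes with lower levels in FXR−/− islets were among the less abundant, with mean levels above those of 26.5% (*Nebl*) and 37.6% (*Slc15a2*) of all genes tested. *Nebl* was at 7.88, 5.95 and 9.66 CPM in female 1, male 1 and male 2 of FXR+/+, and at 3.65, 2.42 and 2.36 CPM in the same order in FXR−/−. Each FXR−/− library lay below each FXR+/+ library, and the nearest pair still differed by 1.63-fold. The level averaged 7.83 ± 1.86 CPM (SD, n = 3) in FXR+/+ and 2.81 ± 0.727 CPM (n = 3) in FXR−/− islets, a log2 fold change of −1.50 (SE 0.240) or a level 0.353 times that of FXR+/+. *Nebl* rests on few reads, with between 46 and 90 counts in the FXR−/− libraries and between 120 and 306 in the FXR+/+ libraries. *Slc15a2* was at 14.5, 12.8 and 13.0 CPM in the FXR+/+ libraries and at 8.87, 6.47 and 6.02 CPM in the FXR−/− libraries. The FXR+/+ libraries differed little among themselves, at 13.4 ± 0.920 CPM (SD, n = 3), and the FXR−/− libraries were at 7.12 ± 1.53 CPM (n = 3), with the female above both males. The log2 fold change of *Slc15a2* was −0.93 (SE 0.130).

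Of the 6 genes with higher levels, *Hip1r* and *Rhobtb1* had the most reads. *Hip1r* was at 94.0, 81.4 and 72.1 CPM in the FXR+/+ libraries and at 140.2, 152 and 139.5 CPM in the FXR−/− libraries. The lowest FXR−/− library was 1.48 times the highest FXR+/+ library, and the log2 fold change was 0.81 (SE 0.104). *Rhobtb1* was at 114, 63.6 and 82.4 CPM in FXR+/+ and at 167, 136 and 149 CPM in FXR−/− islets, a log2 fold change of 0.83 (SE 0.131). Its FXR+/+ libraries were spread widely, with a coefficient of variation of 29.6%, and in both genotypes the female was highest and male 1 lowest. The nearest libraries of the genotypes therefore differed by only 1.19-fold, while within each replicate number the ratio of FXR−/− to FXR+/+ ran from 1.46 to 2.13.

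*Fam20a* and *Spock1* both encode proteins that enter the secretory pathway. *Fam20a* was at 28.9, 30.7 and 29.6 CPM in the FXR+/+ libraries, with the lowest coefficient of variation of the 8 genes there. In the FXR−/− libraries it was at 40.6, 58.8 and 57.4 CPM, and the female was lowest. Its log2 fold change was 0.79 (SE 0.110). *Spock1* was at 34.9, 34.6 and 47.9 CPM in FXR+/+ and at 67.9, 52.4 and 76.9 CPM in FXR−/− islets, a log2 fold change of 0.75 (SE 0.178). The groups did not overlap, but male 2 of FXR+/+ came close to male 1 of FXR−/−, with a ratio of 1.10 between them.

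*Ckb* was at 28.6, 32.4 and 39.0 CPM in the FXR+/+ libraries and at 43.6, 67.8 and 58.8 CPM in the FXR−/− libraries. The female was lowest in both genotypes, the nearest libraries differed by 1.12-fold, and the log2 fold change was 0.75 (SE 0.109). *Lingo3* had the fewest counts of the 8 in FXR+/+, between 30 and 60, and between 78 and 147 in the FXR−/− libraries, where *Nebl* had fewer. It was at 2.56, 1.49 and 1.17 CPM in FXR+/+ and at 5.95, 4.10 and 4.17 CPM in FXR−/− islets, a log2 fold change of 1.49 (SE 0.206), and the female was highest in both genotypes.

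**Figure D1:**
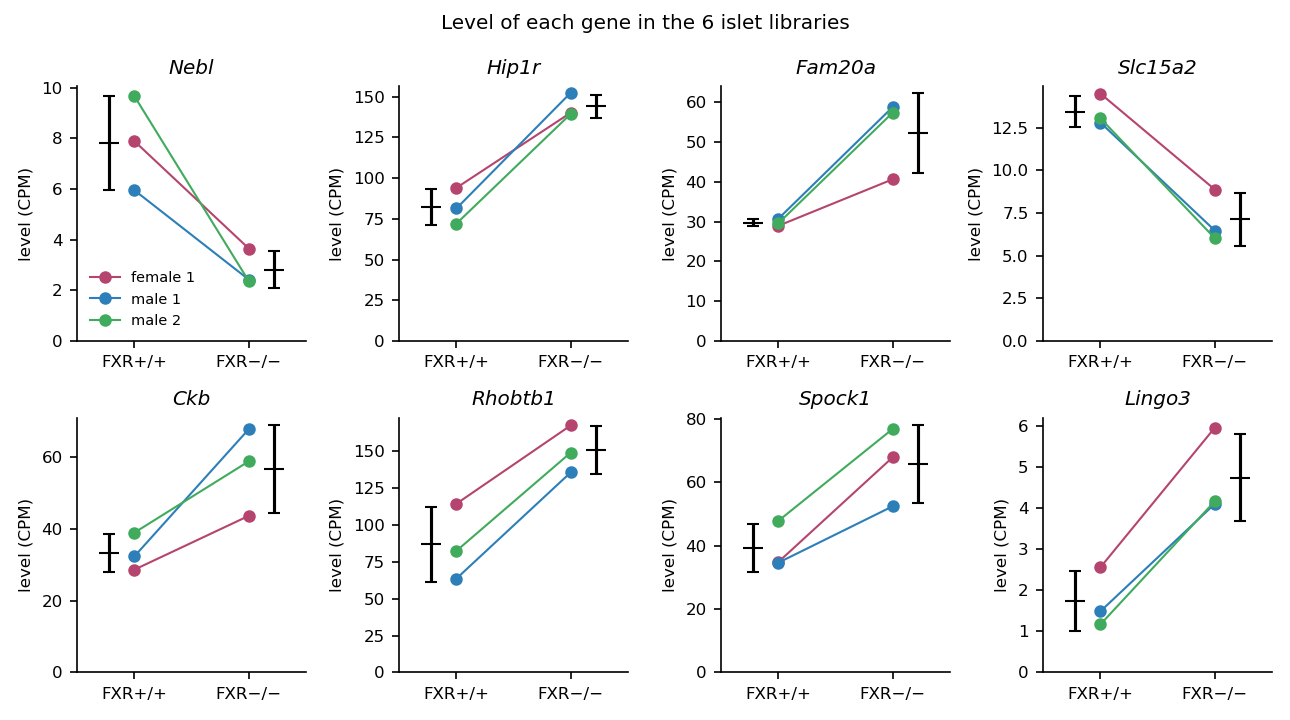
Level in CPM (y axis, from 0) of each of the 8 genes in the FXR+/+ and FXR−/− libraries (x axis), with points of the same replicate number joined by a line and black bars for the mean ± SD (n = 3). *Nebl* and *Slc15a2* are lower and the other 6 genes higher in each FXR−/− library than in each FXR+/+ library.

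All 8 genes passed the filter on low counts, and in all 8 the FXR+/+ and FXR−/− libraries lay apart, which is what they were chosen for. Over the 14619 genes tested the libraries did not overlap for 15.4%, 8.02% higher and 7.37% lower in FXR−/−. In edgeR's quasi-likelihood test (model with sex, p-values adjusted after Benjamini and Hochberg), 0 of the 14619 genes had an adjusted p under 0.05, that is 0%, although 1511 (10.3%) had an unadjusted p under 0.05, 6.18% higher and 4.15% lower in FXR−/−. DESeq2 called 170 genes (1.16%), and edgeR with a replicate block for sex called 23 (0.157%). The 8 genes were chosen on this contrast, so their own calls in it are not given.

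Markers of other cells were compared as well, with libraries of the same replicate number set side by side, since these deviated alike. The labels do not state that they are pairs. Of all genes tested, 51.6% had higher means in FXR−/− islets. At an unadjusted p under 0.05, 6.18% were higher and 4.15% lower in edgeR's test. No such share over all genes was computed for the counts of pairs. Of the 16 acinar markers 15 had higher means in FXR−/− islets, with a median of 0.42 on the log2 scale, and 0 had an unadjusted p under 0.05. Their summed level was 50890 CPM in FXR+/+ and 64830 CPM in FXR−/− for female 1, 138500 and 157600 CPM for male 1, and 46010 and 92850 CPM for male 2. It was thus higher in FXR−/− in each of the 3 pairs, although the ranges of the genotypes overlapped. The summed level of 6 endothelial markers was 351 to 441 CPM in the FXR+/+ libraries and 455 to 710 CPM in the FXR−/− libraries, without overlap, and 5 of the 6 were higher at an unadjusted p under 0.05. Of 8 macrophage markers 6 had higher means, 4 of them at an unadjusted p under 0.05, with overlapping sums of 111 to 149.6 CPM and 148 to 175 CPM. Of 8 glial and neural markers 7 had higher means, 2 of them at an unadjusted p under 0.05, with a median log2 fold change of 0.51 and overlapping sums of 138 to 170.1 CPM and 157 to 181 CPM, and of 7 ductal markers tested 5 had higher means, 3 of them at an unadjusted p under 0.05, with overlapping sums of 375 to 416 CPM and 379 to 411 CPM. All 7 stellate and fibroblast markers tested had higher means, with a median log2 fold change of 0.87, 0 of them at an unadjusted p under 0.05, and overlapping sums of 42.3 to 149.6 CPM and 119 to 144 CPM, and smooth muscle markers of 138 to 159.6 CPM and 145 to 203 CPM. Lymphocyte markers had sums of 20.6 to 45.0 CPM and 15.5 to 26.0 CPM, and beta cell markers of 194300 to 230500 CPM and 186700 to 271600 CPM, each with overlap. Of 4 lymphocyte markers tested 0 had higher means, with a median log2 fold change of −0.86, and 1 was lower at an unadjusted p under 0.05. Of 8 beta cell markers 6 had higher means, 2 of them at an unadjusted p under 0.05. Of 3 striated muscle markers tested 1 had a higher mean, and 1 was lower at an unadjusted p under 0.05. All 5 smooth muscle markers tested had higher means, 0 of them at an unadjusted p under 0.05. By replicate number, the sums of the endothelial, smooth muscle, macrophage and alpha cell markers and the PP cell marker were higher in FXR−/− in each of the 3 pairs. Those of the lymphocyte markers were lower in each. Those of the ductal, stellate, glial, beta cell and delta cell markers were higher in 2 of the 3, and those of striated muscle in 1. The ranges of the genotypes overlapped for the alpha, delta and PP cell markers. The striated muscle marker *Myh4* was not among the genes counted. All 19342 genes counted had reads in some library, so a marker at 0 in every library would not have been listed. The part of these cells in the levels of the 8 genes was not tested.

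Levels were also divided by the length of 1 protein-coding transcript per gene, the one whose exons held the most exon counts. Per kilobase, *Ckb* was the most abundant of the 8 in FXR+/+ islets at 22.6 ± 3.55 CPM per kb (SD, n = 3). It was followed by *Rhobtb1* at 19.6 ± 5.80, *Hip1r* at 12.2 ± 1.64, *Fam20a* at 11.7 ± 0.357 and *Spock1* at 8.48 ± 1.64. Below these were *Slc15a2* at 3.36 ± 0.230, *Nebl* at 1.36 ± 0.321 and *Lingo3* at 0.505 ± 0.212. *Ckb* and *Rhobtb1* overlapped in their libraries, and so did *Hip1r* and *Fam20a*, so neither pair can be ordered. The other neighbours in this order did not overlap on this scale. In FXR−/− islets the first 6 places were held by the same genes in the same order, from *Ckb* at 38.6 ± 8.30 CPM per kb to *Slc15a2* at 1.78 ± 0.384. The last 2 places were exchanged, with *Lingo3* at 1.38 ± 0.306 CPM per kb above *Nebl* at 0.486 ± 0.126. *Lingo3* then overlapped *Slc15a2*, and *Fam20a* overlapped *Spock1*, in addition to the 2 overlapping pairs of FXR+/+ islets. The order depends on this scale, which divides by the full length of a transcript. In 6 of the 8 genes 1 exon at the 3′ end held 87.1% or more of the exon counts. The length used can also exceed the part that was counted. In GENCODE vM21 *Hip1r* reaches at least chr5:124005558, while its last counted exon ended at chr5:124003215. The place of *Hip1r* on this scale is thus uncertain, also beside *Rhobtb1* and *Fam20a*, and that of other genes may be. *Nebl* was divided by the 5780 bases of Nebl-201, while the exon with most of its counts is shared with Nebl-202 of 8079 bases. The value of *Nebl* on this scale is thus uncertain as well. By CPM without length, *Rhobtb1* at 86.8 and *Hip1r* at 82.5 were highest in FXR+/+ islets, and *Ckb* was at 33.3.

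The sequence upstream of the genes was searched for the hexamer to which nuclear receptors bind and for 2 common promoter motifs, since the genes were counted in islets that differ in a nuclear receptor. RefSeq (GRCm38.p6) lists 14 starts for the 8 genes, and the 250 bases before each start were read on both strands. The inverted repeat AGGTCANTGACCT was in none of the 14 windows and in 0.00609% of 32817 windows of all genes. The half-site AGGTCA was in 1 window, window 4 of *Nebl*, and in 14% of all windows. The E-box CACGTG was in window 2 of *Rhobtb1* and window 1 of *Lingo3*, and in 6.02% of all windows, and TATAAA was in window 1 of *Ckb* and window 3 of *Rhobtb1*, and in 12.4% of all windows. The windows with a match are shown with the motif in capitals, 5′ to 3′ on the strand of the gene, except window 3 of *Rhobtb1*. Beside them is window 3 of *Nebl*, which lies before the first exon of Nebl-201, the transcript whose length was used for *Nebl*. It holds none of the motifs. In window 4 of *Nebl*, which lies inside the gene, the capitals mark the half-site as read on the other strand.
Nebl window 3, chr2:17731135-17731384, minus strand: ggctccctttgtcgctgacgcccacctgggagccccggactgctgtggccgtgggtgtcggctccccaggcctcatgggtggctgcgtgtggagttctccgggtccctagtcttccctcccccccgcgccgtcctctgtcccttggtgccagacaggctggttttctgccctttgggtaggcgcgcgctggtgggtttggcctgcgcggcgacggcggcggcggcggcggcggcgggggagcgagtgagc
Nebl window 4, chr2:17462857-17463106, minus strand: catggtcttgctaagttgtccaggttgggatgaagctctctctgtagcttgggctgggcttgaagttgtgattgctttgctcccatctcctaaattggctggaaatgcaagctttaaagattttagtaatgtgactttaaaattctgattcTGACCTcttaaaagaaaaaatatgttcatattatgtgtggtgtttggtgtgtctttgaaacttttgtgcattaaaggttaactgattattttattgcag
Rhobtb1 window 2, chr10:69212407-69212656, plus strand: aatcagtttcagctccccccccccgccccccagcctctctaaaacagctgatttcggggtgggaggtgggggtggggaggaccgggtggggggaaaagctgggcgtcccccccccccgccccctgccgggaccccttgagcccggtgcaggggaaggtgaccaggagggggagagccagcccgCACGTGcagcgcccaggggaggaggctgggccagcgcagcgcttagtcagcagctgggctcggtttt
Lingo3 window 1, chr10:80844040-80844289, minus strand: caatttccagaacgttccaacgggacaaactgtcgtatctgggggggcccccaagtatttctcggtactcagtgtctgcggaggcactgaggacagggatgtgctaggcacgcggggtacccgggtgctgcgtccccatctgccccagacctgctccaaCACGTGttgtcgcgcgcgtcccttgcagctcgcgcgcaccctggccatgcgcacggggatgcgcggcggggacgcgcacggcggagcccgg
Ckb window 1, chr12:111672339-111672588, minus strand: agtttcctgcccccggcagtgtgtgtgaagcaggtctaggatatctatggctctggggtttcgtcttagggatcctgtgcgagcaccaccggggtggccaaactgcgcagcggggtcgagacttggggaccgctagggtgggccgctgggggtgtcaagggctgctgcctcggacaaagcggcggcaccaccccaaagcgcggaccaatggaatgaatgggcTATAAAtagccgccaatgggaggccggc
A match is a run of letters and not a bound site. GC content ran from 36.8% in window 4 of *Nebl* to 74% in window 2 of *Lingo3*, beside a median of 52.4% over all windows.

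The sexes were compared in the same fit, and this test was added after the values had been seen. The genes were not chosen by the difference between the sexes. The test shares the spread within groups with the contrast that chose them, however. The p-values for sex and for its interaction with genotype are therefore not independent of the choice. Each genotype had 1 female and 2 male libraries. The log2 ratio of female to male was −0.43 (SE 0.117) for *Ckb* and −0.28 (SE 0.117) for *Fam20a*. It was 0.72 (SE 0.210) for *Lingo3*, 0.44 (SE 0.136) for *Rhobtb1* and 0.33 (SE 0.135) for *Slc15a2*. These 5 of the 8 genes had an unadjusted p under 0.05 for sex in edgeR's test, as had 7.48% of all genes tested, and 0 of the 8 had an adjusted p under 0.05 (0.0547% of all genes), with adjusted p from 0.552 to 0.924. For *Ckb*, *Fam20a*, *Slc15a2*, *Rhobtb1* and *Lingo3* the female lay outside both males in each genotype. The share of all genes with this order was not computed, so it is a description only. The values for *Hip1r*, *Nebl* and *Spock1* were 0.12 (SE 0.109), 0.29 (SE 0.248) and −0.08 (SE 0.188).

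The difference between the genotypes was smaller in the female pair than in the mean of the males for 7 of the 8 genes. The share of all genes with a smaller difference in the females was not computed, so this count only describes these libraries. The interaction of sex and genotype, which tests this difference for each gene, was 0.60 (SE 0.494) on the log2 scale for *Nebl* and −0.46 (SE 0.177) for *Fam20a*. It was between −0.43 and 0.34 for the other 6 genes. *Spock1* was the exception to the smaller difference in the females, with a ratio of FXR−/− to FXR+/+ of 1.95 in them and of 1.51 and 1.61 in the males. *Fam20a* alone had an unadjusted p under 0.05 for the interaction, as had 1.48% of all genes tested, and its adjusted p from edgeR was 1.00, so a difference between the sexes was not detectable with 1 female library per genotype.

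The fits were repeated under 18 alternatives to see how the sizes of the differences moved. Groups that do not overlap differ the same way in every pair of libraries, and the alternatives refit the same libraries, so an unchanged direction is no sign of stability here. *Nebl* ran from −1.71 to −1.22 on the log2 scale over the alternatives, *Slc15a2* from −1.05 to −0.87 and *Lingo3* from 1.34 to 1.65. *Hip1r* ran from 0.72 to 0.93, *Fam20a* from 0.70 to 0.95, *Ckb* from 0.65 to 0.84, *Rhobtb1* from 0.68 to 0.96 and *Spock1* from 0.61 to 0.95.

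**Figure D2:**
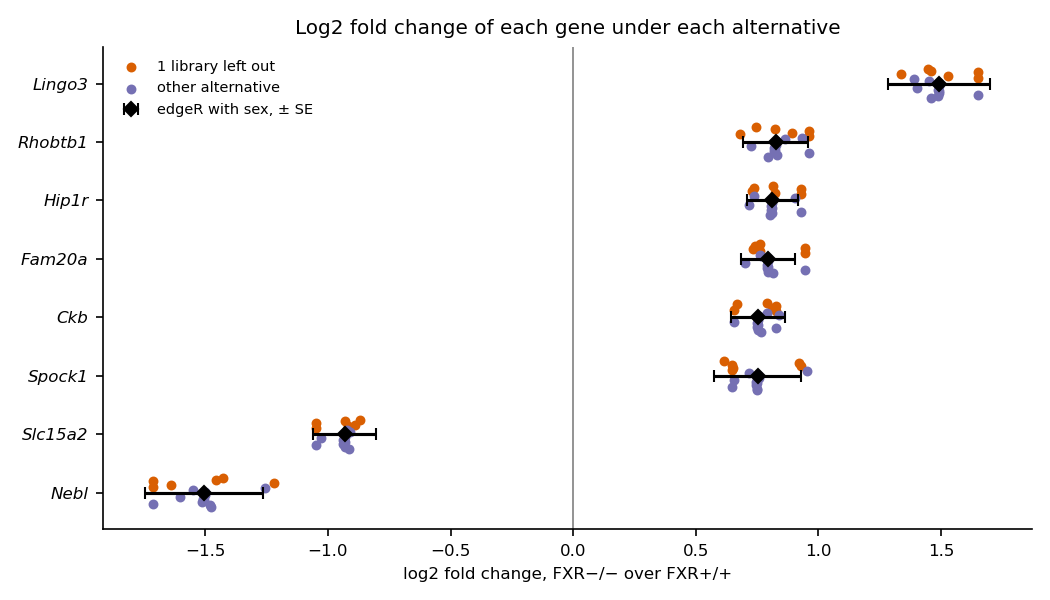
Log2 fold change of FXR−/− over FXR+/+ (x axis) for each of the 8 genes (y axis), with a black diamond and bar for edgeR with a term for sex ± SE, orange points for fits without 1 library and purple points for the other alternatives. *Nebl* stays between −1.71 and −1.22 and *Lingo3* between 1.34 and 1.65.

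The exon table placed part of the reads, with between 32.3% and 36.6% of the gene counts of a library. It held 3817 of the 15806 counts of *Hip1r* and 1706 of the 6323 counts of *Ckb* over the 6 libraries, and the position of the other reads is not given by it. For the 8 genes together it held 48.0%. In 6 of the 8 genes 1 exon at the 3′ end held 87.1% or more of the exon counts. For *Nebl* it was the last exon, chr2:17346734-17348870, with 95.3% of the exon counts, which were 132, 79 and 231 in the FXR+/+ and 60, 31 and 40 in the FXR−/− libraries. This exon is shared by Nebl-201, a GENCODE transcript of 7 exons, and by the 28-exon transcript Nebl-202. The first exon of Nebl-201, which Nebl-202 lacks, had 5, 10 and 5 counts in the FXR+/+ and 4, 0 and 2 in the FXR−/− libraries. The exon numbers of *Nebl* in the deposited table end at 7, so exons found only in Nebl-202 may not have been counted, and the share of each form cannot be given. For *Spock1* the exon at chr13:57426091-57429485 held 99.2% of the exon counts, for *Lingo3* the exon at chr10:80832801-80836141 held 98.5%, for *Hip1r* the exon at chr5:124002118-124003215 held 93.6%, for *Slc15a2* the exon at chr16:36750164-36751954 held 88.4% and for *Ckb* the exon at chr12:111669355-111669741 held 87.1%. In GENCODE vM21 each of these exons contains the stop end of the reading frame with 3′ UTR. The log2 fold changes of these 6 exons were −1.56 (SE 0.253) for *Nebl*, −0.87 (SE 0.150) for *Slc15a2*, 0.90 (SE 0.154) for *Hip1r*, 0.86 (SE 0.155) for *Ckb*, 0.70 (SE 0.188) for *Spock1* and 1.41 (SE 0.205) for *Lingo3*. These exons hold most exon counts of genes that were chosen by their level, so their likeness to the gene is no separate evidence.

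*Fam20a* and *Rhobtb1* had counts along more of the gene. In *Fam20a* the last exon, chr11:109672926-109673564, and the first, chr11:109721312-109722256, held 44.6% and 46.8% of the exon counts, and their log2 fold changes were 0.71 (SE 0.152) and 0.85 (SE 0.182). In *Rhobtb1* the last exon, chr10:69289520-69291784, held 67.3% and the coding exon at chr10:69269903-69270873 held 25.2%, with log2 fold changes of 0.80 (SE 0.158) and 0.96 (SE 0.139). The pair of main exons thus differed between the genotypes in the same direction in both genes, which the choice of the genes by their level makes likely.

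Exon usage, the share of an exon among the counts of its gene, was tested with edgeR's diffSpliceDGE. Of the 91 exons listed for the 8 genes 12 could be tested, 7 of *Rhobtb1*, 3 of *Fam20a* and 2 of *Ckb*. Of these, 0 had an adjusted p under 0.05, beside 2 of all 21035 exons tested (0.00951%), and 1 had an unadjusted p under 0.05, as had 2.3% of all. That exon, chr11:109675843-109675952 in the coding sequence of *Fam20a*, had a log2 difference in usage of −1.11 (adjusted p = 1 by edgeR's diffSpliceDGE) and rested on 11, 5 and 18 counts in the FXR+/+ and 6, 9 and 8 in the FXR−/− libraries. The 2 exons called among all were both of *Nr1h4*.

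**Figure D3:**
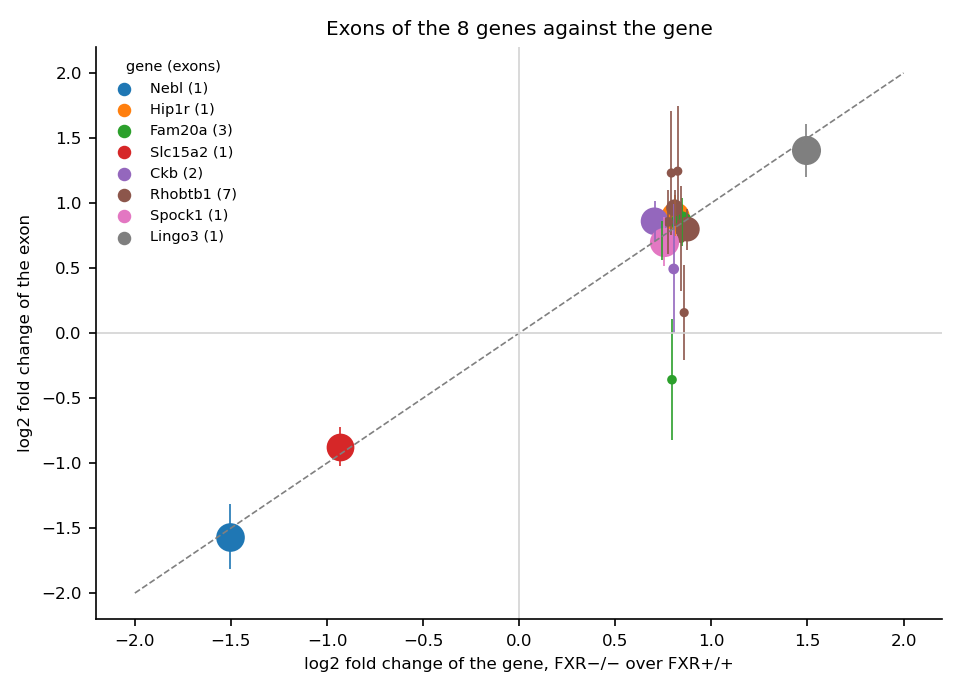
Log2 fold change of FXR−/− over FXR+/+ of each tested exon (y axis, bars ± SE) against that of its gene (x axis, points of a gene spread slightly), with the area of a point growing with the exon's share of the exon counts and a dashed line where both are equal. The exons with most counts lie near the line, from −1.56 for *Nebl* to 1.41 for *Lingo3*, and the exons far from it have few counts. Exons with most counts carry part of the level by which the genes were chosen, so their nearness to the line is no separate evidence.

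Genes of the family or pathway of each of the 8 were examined next, to see whether they differed with them. Of 102 such relatives 86 were tested. By edgeR's test 0 of the 86 had an adjusted p under 0.05, 13 (15.1%) had an unadjusted p under 0.05, 12 of them higher and 1 lower in FXR−/− islets, beside 10.3% of all genes, and 14 (16.3%) had libraries that did not overlap, beside 15.4% of all genes. DESeq2 called 3 of the 86. The median log2 fold change was 0.13 over the relatives and 0.01 over all genes tested.

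The relatives of *Lingo3* had the highest median of the 8 lists. The list held members of the LINGO family, partners of the Nogo receptor and, outside both, *Tff2*. All 9 of its tested genes had higher means in FXR−/− islets, as had 51.6% of all genes tested. The median of their log2 fold changes was 0.75, and 2 of the 9 had an unadjusted p under 0.05. Of the 9, 5 were under 2 CPM in FXR+/+ islets. *Lingo1*, a co-receptor that limits myelination, was at 11.0, 9.76 and 7.70 CPM in the FXR+/+ libraries and at 16.8, 16.6 and 18.8 CPM in the FXR−/− libraries. Its log2 fold change was 0.88 (SE 0.150, edgeR adjusted p = 0.225, DESeq2 adjusted p = 0.000957). *Rtn4*, which encodes Nogo and was the most abundant of the list, was at 248, 212 and 225 CPM in FXR+/+ and at 301, 306 and 302 CPM in FXR−/− islets, a log2 fold change of 0.41 (SE 0.0867, edgeR adjusted p = 0.285, DESeq2 adjusted p = 0.00110). For both genes the libraries did not overlap.

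The nebulin list had 2 of 11 tested genes with an unadjusted p under 0.05. *Lasp1*, which encodes a LIM and SH3 protein of the nebulin family, averaged 157 ± 7.54 CPM (SD, n = 3) in FXR+/+ and 195 ± 13.3 CPM (n = 3) in FXR−/− islets, a log2 fold change of 0.31 (SE 0.0879, edgeR adjusted p = 0.409), and *Des*, the muscle intermediate filament desmin, had a log2 fold change of 0.76 (SE 0.323, edgeR adjusted p = 0.480) at 3.01 ± 1.31 and 5.06 ± 1.26 CPM. The direction of *Lasp1* was thus opposite to that of *Nebl*. *Neb*, the giant nebulin of skeletal muscle, was the other gene of the family with lower levels and libraries that did not overlap, at 3.68 ± 0.422 and 2.26 ± 0.983 CPM (log2 fold change −0.73, SE 0.313, edgeR adjusted p = 0.480). *Actn4*, an actinin and the most abundant of the list, had a log2 fold change of 0.17 (SE 0.0924, edgeR adjusted p = 0.524). Striated muscle markers were near 0, with a summed level of 2.52 to 4.21 CPM over the 6 libraries.

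Of the 18 clathrin and endocytic genes related to *Hip1r*, 3 had an unadjusted p under 0.05, all higher in FXR−/− islets, against a median log2 fold change of 0.07 for the list. They were *Ap2a1*, a subunit of the AP2 adaptor, at 0.28 (SE 0.0923, edgeR adjusted p = 0.430), *Amph*, amphiphysin, at 0.26 (SE 0.0953, edgeR adjusted p = 0.457) and *Epn1*, epsin 1, at 0.24 (SE 0.0864, edgeR adjusted p = 0.452). *Cltc*, the clathrin heavy chain and the most abundant of the list, averaged 425 ± 66.7 CPM (SD, n = 3) in FXR+/+ and 392 ± 10.3 CPM (n = 3) in FXR−/− islets, and *Hip1*, the paralog of *Hip1r*, was 29.1 ± 0.697 and 31.2 ± 2.66 CPM.

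Of the 15 tested secretory kinases and proteoglycan enzymes related to *Fam20a*, 3 had an unadjusted p under 0.05. *B3gat3*, which completes the linker of glycosaminoglycans, had a log2 fold change of 0.36 (SE 0.104, edgeR adjusted p = 0.410), *Fam69b* one of 0.35 (SE 0.125, edgeR adjusted p = 0.452) and *Xylt1*, which starts that linker, one of 0.64 (SE 0.232, edgeR adjusted p = 0.454). *Fam20c*, the kinase that FAM20A partners, averaged 148 ± 5.94 CPM (SD, n = 3) in FXR+/+ and 155 ± 22.5 CPM (n = 3) in FXR−/− islets, and *Fam20b*, the most abundant of the list, was 156 ± 9.13 and 151 ± 7.51 CPM. The log2 fold changes of these paralogs were 0.06 (SE 0.0982) and −0.05 (SE 0.0836), beside 0.79 for *Fam20a*.

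The peptide list of *Slc15a2* held the only relative that was lower at an unadjusted p under 0.05. *Anpep*, the aminopeptidase N that releases amino acids from peptides outside the cell and the most abundant of the list, was at 128, 139 and 124 CPM in the FXR+/+ libraries and at 83.7, 107 and 109.7 CPM in the FXR−/− libraries, without overlap. Its log2 fold change was −0.39 (SE 0.0964, edgeR adjusted p = 0.336, DESeq2 adjusted p = 0.0321). *Dpep1*, a dipeptidase, was higher, at 0.677 ± 0.407 CPM (SD, n = 3) in FXR+/+ and 1.72 ± 0.484 CPM (n = 3) in FXR−/− islets, a log2 fold change of 1.39 (SE 0.457, edgeR adjusted p = 0.430). Among the carriers, *Slc15a4* had a log2 fold change of −0.08 (SE 0.111) and *Slc15a3* one of 0.73 (SE 0.450), while *Slc15a1*, the intestinal carrier, was too low to test.

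The lists of *Ckb* and *Rhobtb1* lay close to 0. None of the 4 tested genes of creatine metabolism had an unadjusted p under 0.05, with *Gatm*, which makes the precursor of creatine, as the most abundant at −0.14 (SE 0.143, edgeR adjusted p = 0.701) and the mitochondrial kinase *Ckmt1* at 0.03 (SE 0.109). Of the 11 tested genes related to *Rhobtb1*, 0 had an unadjusted p under 0.05, and their log2 fold changes lay between −0.18 and 0.20. *Cul3* had a value of −0.09 (SE 0.0888), *Rhobtb2* one of 0.03 (SE 0.110) and *Pde5a*, the most abundant, one of −0.15 (SE 0.237). Of the 10 tested genes related to *Spock1*, *Mmp14*, a membrane metalloproteinase, had an unadjusted p under 0.05 with a log2 fold change of 0.67 (SE 0.175, edgeR adjusted p = 0.369) and libraries that did not overlap. *Spock2*, the most abundant testican, averaged 671 ± 92.8 CPM (SD, n = 3) in FXR+/+ and 587 ± 59.8 CPM (n = 3) in FXR−/− islets, opposite in direction to *Spock1* but within the spread of the libraries.

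**Figure D4:**
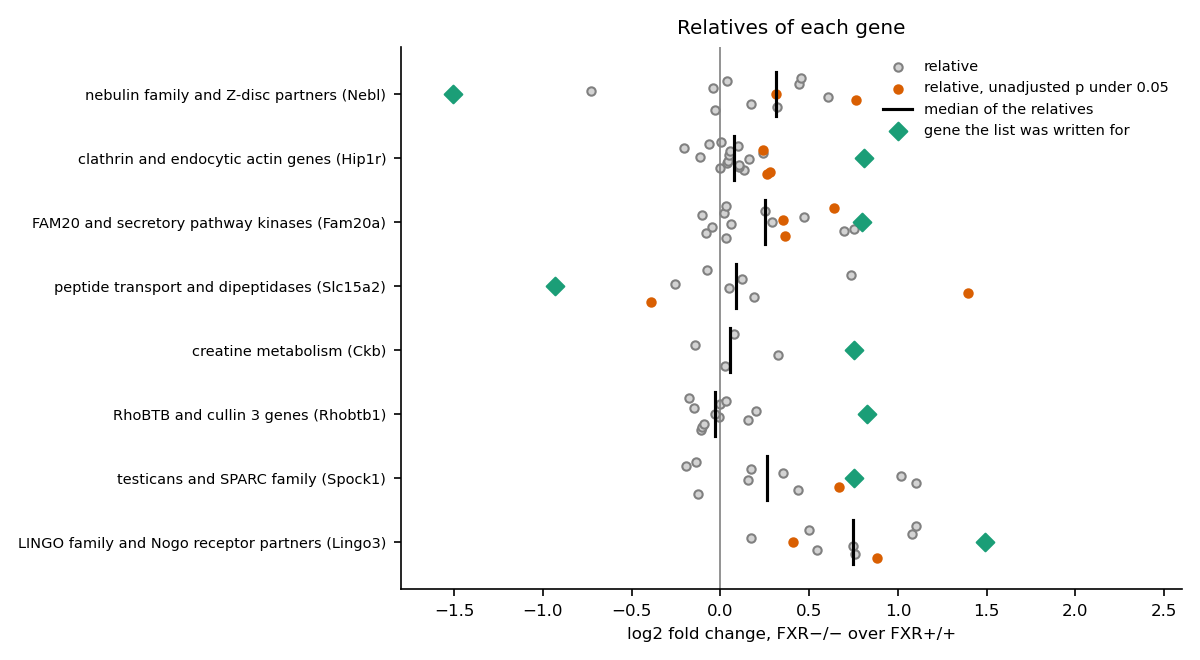
Log2 fold change of FXR−/− over FXR+/+ (x axis) of the relatives of each of the 8 genes (y axis, 1 list per gene), with orange points for an unadjusted p under 0.05, a black line for the median of a list and a green diamond for the gene it was written for. The relatives of *Lingo3* have a median of 0.75, and the other medians lie between −0.03 and 0.31.

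Neighbouring genes were examined because a difference that spans a stretch of chromosome would appear in them. Of 159 genes within 0.5 Mb of the 8, 129 were tested, and 0 had an adjusted p under 0.05 by edgeR, 11 (8.53%) had an unadjusted p under 0.05, all higher in FXR−/− islets, beside 10.3% of all genes, and DESeq2 called 2. No neighbour of *Nebl*, *Fam20a*, *Ckb*, *Rhobtb1* or *Spock1* had an unadjusted p under 0.05 among the 5, 12, 17, 3 and 9 tested. *Slc15a2* had 1 of 10, the calcium-sensing receptor *Casr*, with a log2 fold change of 0.32 (SE 0.0822, edgeR adjusted p = 0.367), opposite in direction to *Slc15a2*.

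*Hip1r* had 2 of 24 neighbours with an unadjusted p under 0.05, the same 2 that DESeq2 called. *Vps37b*, which encodes a subunit of the ESCRT-I sorting complex, was at 23.6, 20.6 and 18.7 CPM in the FXR+/+ libraries and at 31.0, 36.9 and 33.8 CPM in the FXR−/− libraries, a log2 fold change of 0.70 (SE 0.121, edgeR adjusted p = 0.225, DESeq2 adjusted p = 0.00121). It lies 1426 bases past the end of *Hip1r* in RefSeq and on the opposite strand, and in GENCODE vM21 a longer form of *Hip1r* shares 918 bases with the last exon of *Vps37b*. That exon held 1170 and 1673 of the exon counts of *Vps37b* in the FXR+/+ and FXR−/− libraries, and all other exons together held 15 in each genotype. The library protocol names no step that marks the strand, so reads of the 2 genes in the shared bases cannot be told apart, and the value of *Vps37b* is uncertain. *Abcb9*, a lysosomal peptide carrier 58642 bases away, had a log2 fold change of 0.52 (SE 0.129, edgeR adjusted p = 0.336, DESeq2 adjusted p = 0.0453).

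*Lingo3* lies in a stretch dense in genes, and 45 of its 49 tested neighbours had higher means in FXR−/− islets, beside 51.6% of all genes tested. Of the 49, 8 (16.3%) had an unadjusted p under 0.05, all higher, beside 6.18% of all genes in that direction. The median log2 fold change of the neighbours was 0.13. *Map2k2*, a kinase of the MAP kinase cascade, was the one with an unadjusted p under 0.01, with a log2 fold change of 0.34 (SE 0.0955, edgeR adjusted p = 0.400). *Lingo3* and *Rhobtb1* lie on chromosome 10, as does the targeted *Nr1h4*, at distances of 8.61 Mb and 20.2 Mb from it. The part of this position in their levels was not tested.

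**Figure D5:**
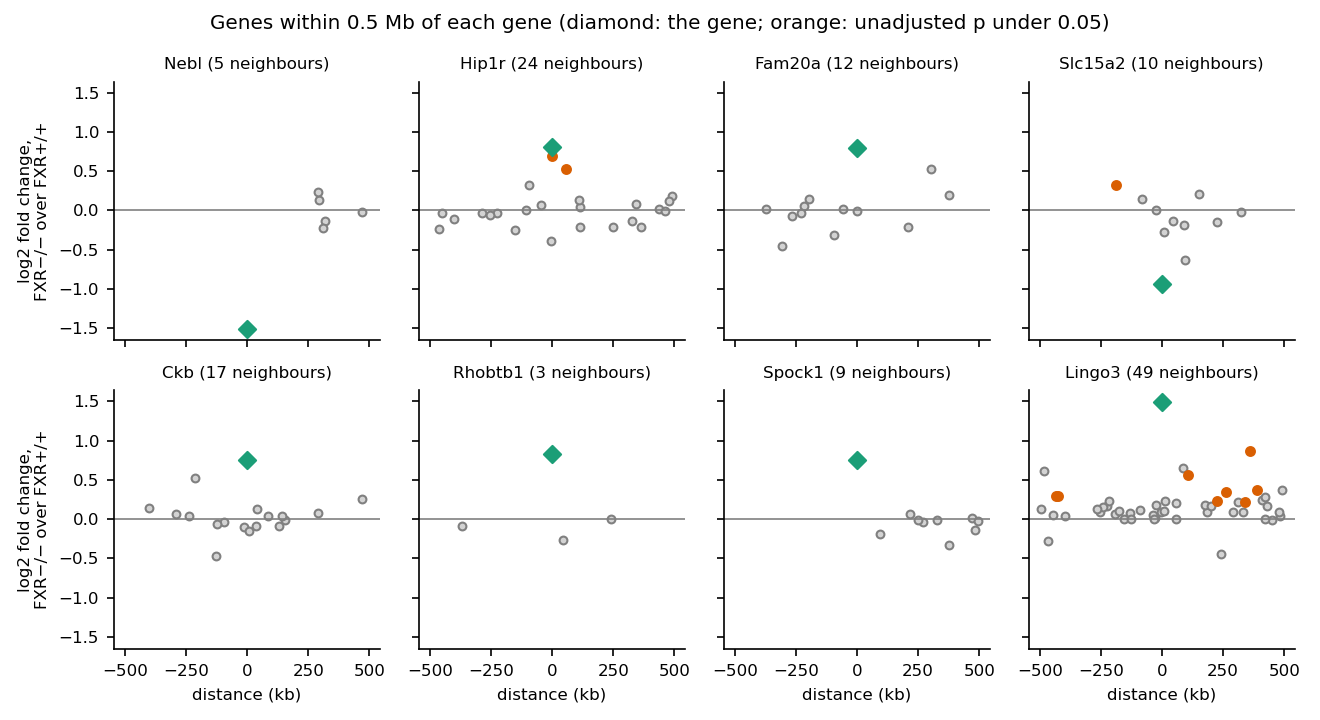
Log2 fold change of FXR−/− over FXR+/+ (y axis) of tested genes within 0.5 Mb of each of the 8 genes against their distance in kb (x axis), with orange points for an unadjusted p under 0.05 and a green diamond for the gene itself. *Vps37b* at 0.70 lies beside *Hip1r*, and 45 of the 49 neighbours of *Lingo3* are above 0.

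The genes with the most similar pattern were found by Pearson's r of log2 CPM over the 6 libraries, among 13536 genes with a mean of at least 1 CPM. The libraries of each of the 8 genes part by genotype, so the difference between the genotypes makes up most of each r, and with 6 libraries many genes reach a high value: between 65 genes for *Spock1* and 350 for *Nebl* had an r above 0.9. The nearest to *Nebl* were *Plxna3* (r = 0.993) and *Smc6* (r = 0.993), and the nearest to *Slc15a2* were *Rragb* (r = 0.989) and *Zfp426* (r = 0.989). *Hip1r* was nearest to the clock factor *Npas2* (r = 0.994) and to its neighbour *Vps37b* (r = 0.992), and *Fam20a* to *Kcnh5* (r = 0.998) and *Adgrg1* (r = 0.995). *Ckb* was nearest to *Ptprn*, a protein of insulin granules (r = 0.994), and to *Ms4a7* (r = 0.991), *Rhobtb1* to *AI182371* (r = 0.989) and *Slc6a17* (r = 0.987), *Spock1* to *Grip1* (r = 0.999) and *Dsg2* (r = 0.991), and *Lingo3* to *Tnk2* (r = 0.989) and the vasopressin receptor *Avpr1b* (r = 0.988). Among the 8 themselves, *Fam20a* and *Slc15a2* were the pair of most opposite pattern (r = −0.992), and *Ckb* and *Lingo3* had the least shared pattern of the higher genes (r = 0.576).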

How the data were processed

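RNA-seq of islets was analysed in 3 libraries from FXR+/+ and 3 from FXR−/− mice, grouped by the labels. The authors deposited counts per gene and counts per exon, as whole numbers without normalization. The submitters' processing notes name HISAT, while the counting tool, annotation, use of strand and versions are not given in the sources used here. Exon positions are those of GRCm38. The authors also deposited their own comparison of the genotypes (means, log2 fold changes, p-values, q-values and calls), which was not used.

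The counts per gene went through edgeR 4.0.16 in R 4.3.3. Low counts were removed by filterByExpr (at least 10 counts, 15 in total), libraries were scaled by TMM, and a quasi-likelihood model of sex plus genotype was fitted to all 6 libraries (glmQLFit, glmQLFTest), with Benjamini-Hochberg adjustment over 14619 genes. CPM values are counts per 1000000 of the TMM-scaled library size, and the pseudocount for Pearson's r was 0.5 CPM. Exons were fitted with the same model, and usage was tested with diffSpliceDGE. The tests of sex and of its interaction with genotype came from the same counts. Scripts were tested on simulated data. Library totals ran from 20629306 to 30139235 counts, so genes of low level such as *Lingo3* carry more counting error.

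The members and the gene lists were chosen with earlier results of these data known. The genes named are the 8 members, *Nr1h4*, the most abundant relative of each member and each relative with an unadjusted p under 0.05, neighbours with an unadjusted p under 0.01, and the 2 genes with the highest r for each member. *Neb*, *Hip1*, *Fam20c*, *Ckmt1*, *Slc15a1*, *Slc15a3*, *Slc15a4*, *Cul3* and *Rhobtb2* were named in addition, after their values were seen, as the nearest relatives of a member. *Tff2* was named only to describe the list of *Lingo3*. Positions and promoters are from RefSeq (GRCm38.p6) and exon features from GENCODE vM21, of the build of the exon table.

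The labels give both genotypes the same replicate numbers. After subtraction of the genotype mean, libraries of 1 number correlated across genes with r = 0.373 for female 1, r = 0.419 for male 1 and r = 0.346 for male 2. By these values libraries of 1 number deviated alike in these data. Libraries of different numbers had r = 0.0628 at most. The deviations within a genotype cancel out for each gene, so high values within a number push down those between numbers. The low values between numbers are thus no separate evidence. The labels do not state a pairing, and what the numbers stand for is not stated. Female 1 also differs in sex, and male 1 had the highest acinar share in both genotypes. The part of sex and of acinar RNA in these correlations was not tested. The alternatives were genotype alone, the replicate block, males alone, DESeq2 1.42.0, legacy dispersion estimates, other scalings and filters, exon counts summed per gene, a term for acinar RNA, each library left out in turn and, for exon usage, limma 3.58.1.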

Additional observations from a re-analysis of the deposited data

How the results depend on the processing

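The log2 fold changes of the 8 genes moved by less than 1 SD of the libraries in all 144 alternative values, whose direction the choice of the genes largely fixes. The number of genes with an adjusted p under 0.05 was 0 with edgeR and a term for sex, 23 with the replicate block (libraries matched by replicate number), 170 with DESeq2, 4 with exon counts summed per gene (13764 genes tested) and 8 with a term for acinar RNA. The cause of these differences was not tested. DESeq2 called 3 relatives (*Lingo1*, *Rtn4* and *Anpep*) and 2 neighbours (*Vps37b* and *Abcb9*), against 0 and 0 with edgeR, and the replicate block changed no call among relatives, neighbours or exons. With 1 library left out, the counts of adjusted calls were 0 to 0 for all genes, relatives, neighbours and exon usage, while the number of genes with an unadjusted p under 0.05 ran from 863 to 2176. It was 1223 and 1237 without the female of FXR+/+ or FXR−/−, close to the 1218 of males alone, with different numbers of genes passing the filter. Scaling by library size alone moved the median over all genes on the log2 scale from 0.01 to −0.09. With 3 libraries a group, an exact permutation test of 1 gene cannot go below p = 0.1, and *Lingo3*, *Nebl* and most exons rest on few counts.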
